A study of Homo sapiens with 4 samples.

Results

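The cassette exons of APP and APLP2, members of the amyloid precursor gene family, were taken from a splicing comparison in HEK293T cells, a human embryonic kidney cell line. All events whose gene symbol was APP or APLP2 were included, 12 of the 31408 events in the authors' deposited table. A cassette exon event sets the joining of an exon to both of its neighbours against its skipping, and an exon with several possible neighbours appears in several events. The 12 events comprised 6 of APP (ENSG00000142192, chromosome 21, minus strand) and 6 of APLP2 (ENSG00000084234, chromosome 11, plus strand), and covered 10 different exons.

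Of the 4 samples, 2 clones are labelled WT (wild type) and 2 RBFOX2 KO (knockout), and the aim of the RNA-seq was to find exons that are spliced differently without RBFOX2. RBFOX2 (RBM9 in the sample titles) is a splicing regulator that recognises GCATG near its target exons. The labels give 1 protocol for all 4 samples: transfection with the Cas9 plasmid PX459 and the plasmid pgRGFP carrying guides on either side of RBFOX2, sorting of single cells and genotyping of the expanded clones by PCR. Each sample is thus a single clone, and a difference between sets may include differences between clones. The table names its libraries only as a first and a second set, and neither the header nor the labels state which set is wild type. Differences are therefore given as first set minus second set and are not read as gain or loss on knockout. Junction counts and inclusion levels of single libraries carry no sample name and were left out for that reason. Depth and the spread within each set were therefore not computed here for any exon. The table holds splicing values only, so the cell line's identity was not checked against marker genes. It lists 0 events for RBFOX2 itself.

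APP and APLP2 encode single-pass membrane proteins that are cut by secretases, which release a large extracellular part. Cutting of APP by beta- and gamma-secretase gives the amyloid beta peptide; APLP2 lacks that peptide sequence. Both genes carry an alternative exon for a Kunitz protease inhibitor domain in the extracellular part, and APP has next to it an alternative exon related to the OX-2 antigen. In both genes a further small exon lies ahead of the membrane span. Its skipping creates the attachment site for chondroitin sulfate. Neurons mostly make APP without the inhibitor domain, while most other cells make forms that contain it.

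The inclusion level runs from 0 to 1 and gives the part of an event's junction reads that come from the included form, corrected for effective length. An event was called where the false discovery rate (FDR) of the authors' rMATS model was under 0.05 and the inclusion levels of the sets were at least 0.1 apart. Of the 12 events 1 was called, against 5.15% of all events in the authors' deposited table. It was the event of the 57-nt exon 8 of APP with exons 6 and 9 listed as its partners. Its inclusion reads over the 8-9 junction can also come from transcripts with exon 7. Inclusion was higher in the second set. In that direction 2.38% of all events were called, and 2.77% in the other, where the family had 0. Counted by exon, 1 of 10 was called, against 5.73% of the 27483 different exons. For 12 events these shares are too coarse to set the family apart from the table.

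The differences were otherwise small. The median absolute difference in the authors' deposited table was 0.009 for the 12 events (0.0345 for APP and 0.004 for APLP2) and 0.048 for all events. The sets were at least 0.1 apart in 1 of the 12 events, compared with 31.5% of all events. Read depth was not compared, and several of the 12 events share junctions. Whether the family varies less than the table was therefore not tested. Of the 12 events, 5 carried a p-value of 1, compared with 51.4% of the table. The unadjusted p-value was under 0.05 in 4 of the 12, of which 3 were in APP and 1 in APLP2, against 12.0% of the table.

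**Figure D1:**
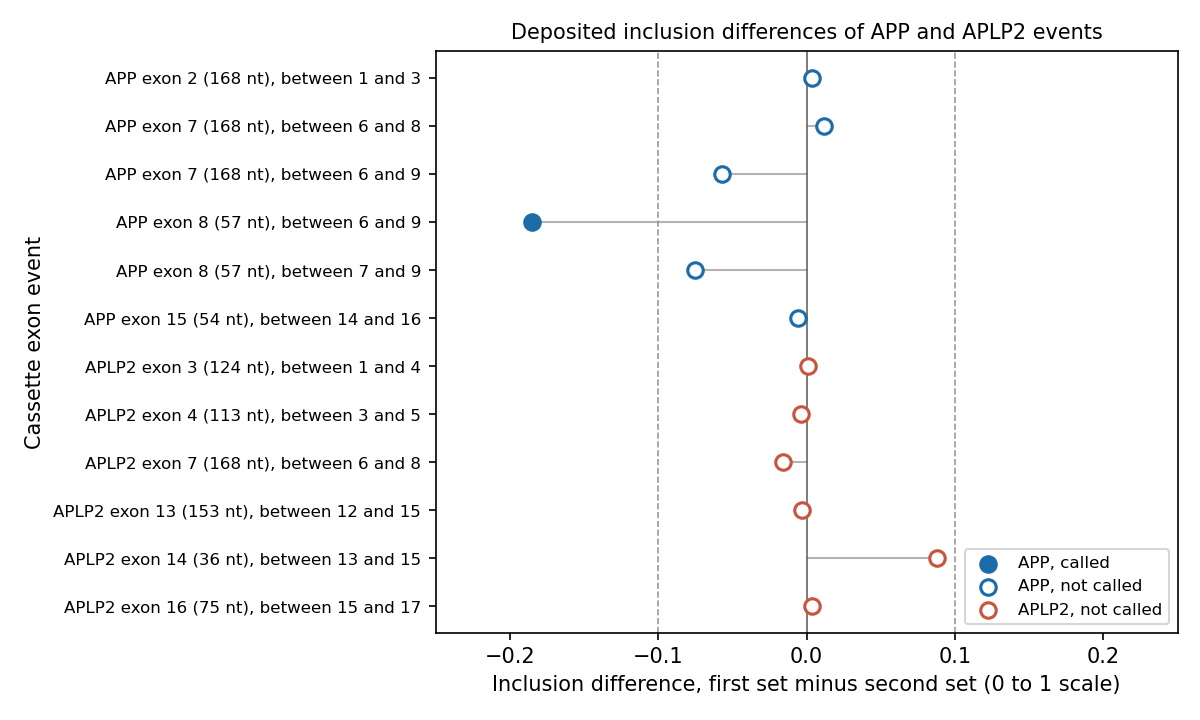
Inclusion difference (first set minus second set, horizontal axis) for each of the 12 events, APP in blue and APLP2 in red, with dashed lines at the minimum difference of 0.1 and filled points for called events; no error bars are drawn because values per library were not used. Only exon 8 of APP between exons 6 and 9, at -0.185, lies beyond a dashed line, and exon 14 of APLP2, at 0.088, is the farthest on the other side.

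Exons are numbered from the GENCODE 29 transcript with the longest coding sequence, which has 18 exons in each gene and encodes 770 codons for APP and 763 for APLP2. Positions are those of the deposited table, in hg19 as named in the submitters' processing notes. Sequences were read from GENCODE 29 transcripts after a match by structure.

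Exon 8 of APP, the OX-2-related exon, lies at chr21:27369675-27369731 and is entirely coding. It is shown in capitals between the last 15 bases of exon 6 and the first 15 bases of exon 9, as in a transcript without exon 7, because this arrangement carried the call. The skipping junction, with the bases of exon 9 in capitals, is given under it.
APP exon 8 in 6-8-9: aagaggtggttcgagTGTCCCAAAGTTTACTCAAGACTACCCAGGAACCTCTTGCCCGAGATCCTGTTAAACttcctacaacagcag
APP junction 6-9: aagaggtggttcgagTTCCTACAACAGCAG

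In the authors' deposited table exon 8 had an inclusion difference of -0.185 between exons 6 and 9, with an rMATS p-value of 1.68e-05 and an FDR of 0.000714. It ranked 737th of the 31408 events by p-value, and its Bonferroni-adjusted p-value over the table was 0.526. With Bonferroni correction 0 of the 12 events and 1.5% of the table passed, and with a minimum difference of 0.2 the numbers were 0 and 3.54%. With exon 7 as the upstream partner, the same exon stood at -0.075 in the authors' deposited table, with a p-value of 0.00631 and an FDR of 0.0873. At an FDR under 0.1 with no minimum difference, limits chosen after seeing the data, 3 of the 12 events passed, this one among them, against 7.48% of the table. The second set had the higher inclusion in both arrangements, and only the one between exons 6 and 9 was called. Both events count reads over the 8-9 junction as inclusion, also those from transcripts with exon 7. The called difference is thus not a measure of transcripts without exon 7 alone, and the shared direction is not independent. Whether the differences in these arrangements differ from each other was not tested. In the table's annotation 24424 nt separate exons 6 and 8, 2598 nt separate exons 7 and 8, and 14884 nt separate exons 8 and 9.

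Exon 7 of APP encodes the Kunitz protease inhibitor domain and lies at chr21:27372330-27372497. It is 168 nt long and has an exon of the same length in APLP2, exon 7 at chr11:129993507-129993674. Both are shown whole to compare the inhibitor exons of the family. Capitals mark the in-frame TGT and TGC codons, which encode the cysteines that hold a Kunitz domain together.
APP exon 7: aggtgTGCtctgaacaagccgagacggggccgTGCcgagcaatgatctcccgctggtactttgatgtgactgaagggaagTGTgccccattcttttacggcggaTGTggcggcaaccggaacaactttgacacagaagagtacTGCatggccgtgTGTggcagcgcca
APLP2 exon 7: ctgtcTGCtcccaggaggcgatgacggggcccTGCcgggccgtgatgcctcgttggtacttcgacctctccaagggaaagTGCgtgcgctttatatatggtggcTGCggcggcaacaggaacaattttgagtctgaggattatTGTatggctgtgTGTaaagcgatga

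The inhibitor exons were identical at 109 of 168 positions (64.9%) without gaps, and all 6 cysteine codons stood at the same positions. Exon 2 of APP, which also has 168 nt, matched exon 7 of APP at 46 positions (27.4%). In the authors' deposited table exon 7 of APP differed by -0.057 between exons 6 and 9, with an rMATS p-value of 0.0317 and an FDR of 0.296. Between exons 6 and 8 its inclusion difference was 0.012 (rMATS p-value 0.848) in the authors' deposited table. That event lists exon 8 in a 229-nt form and not in the 57-nt form. Exon 7 of APLP2 stood at -0.016 (p-value 0.526) in the authors' deposited table. None of the 3 inhibitor exon events was called. The difference between the genes was not tested, and no interval was computed for these differences.

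The events of APP exons 7 and 8 rest on the same reads. They use 6 different junctions (6-7, 6-8, 6-9, 7-8, 7-9 and 8-9), and each junction enters 2 of the 4 events. The called event sets reads over 6-8 and 8-9 against reads over 6-9. The 8-9 junction is also formed in transcripts that contain exon 7, and its reads are counted for both exon 8 events. The 6-9 junction is the skipping form both of exon 8 between 6 and 9 and of exon 7 between 6 and 9. These are the events with the differences -0.185 and -0.057 in the authors' deposited table. The 4 values are therefore not independent measurements.

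**Figure D2:**
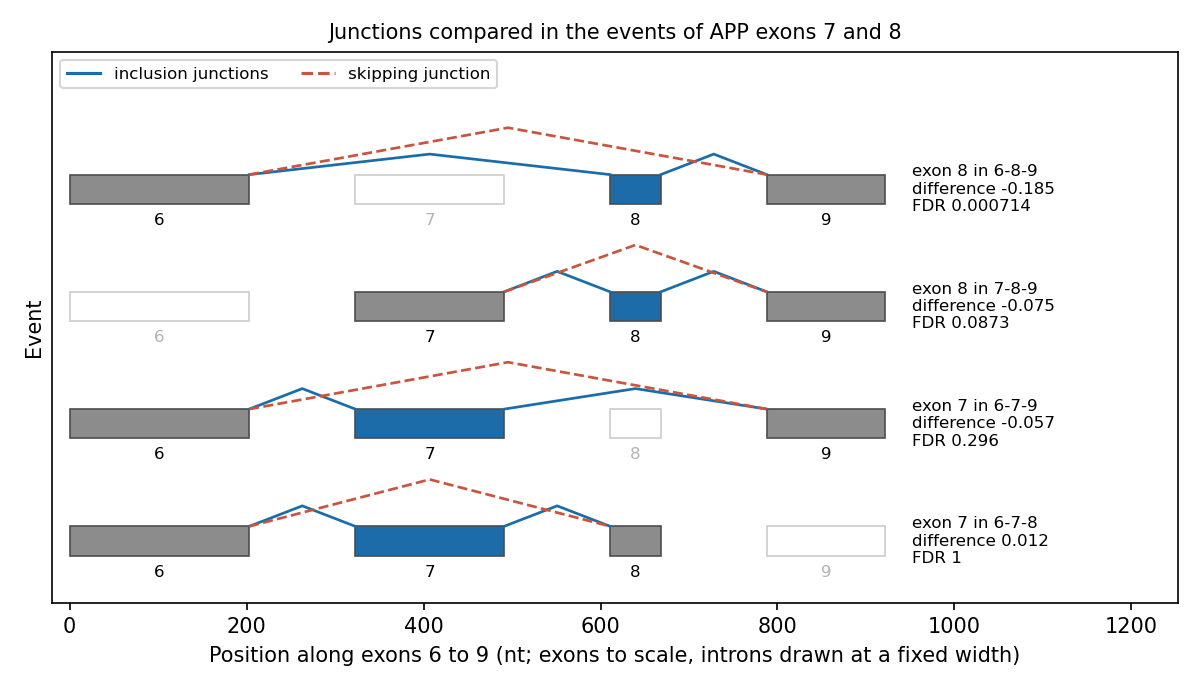
Junctions compared in the 4 events of APP exons 7 and 8, with exon lengths in nt to scale along the horizontal axis and introns at a fixed width; blue boxes are the tested exon, grey boxes its flanking exons and white boxes exons outside the event, solid lines inclusion junctions and dashed lines the skipping junction. Exon 8 is drawn at 57 nt in every row, although the event of exon 7 between exons 6 and 8 lists it in a 229-nt form. The event with the difference of -0.185 skips from exon 6 to exon 9, the same skipping junction as in the exon 7 event with -0.057.

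GENCODE 29 has transcripts for each combination. Of the 10 coding APP transcripts that contain exons 6 and 9, 3 contain both alternative exons, 3 contain exon 7 alone, 3 contain neither and 1 contains exon 8 alone. The transcript with both encodes 770 codons, the one with exon 7 alone 751 and the one with neither 695, where the rest of the coding sequence is the same. The transcript with exon 8 alone, the only one of the 10 with the 6-8 junction of the called event, has an incomplete coding sequence in the annotation. Exons 7 and 8 each have a length divisible by 3, so that every combination keeps the reading frame.

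The RBFOX recognition sequence GCATG was searched in the exons on the transcript strand. It was found in 1 of the 10 exons, exon 7 of APP, at positions 145 to 149 counted from 1 at the 5′ end of the exon. The preceding base is T, which completes the longer form TGCATG. APLP2 has the substitution C146T at the same place of its exon 7. The stretch is shown for both genes with these 5 positions in capitals.
APP exon 7, positions 135 to 159: gaagagtactGCATGgccgtgtgtg
APLP2 exon 7, positions 135 to 159: gaggattattGTATGgctgtgtgta

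On the opposite strand GCATG was found in exon 2 of APP. Of the exons of 168 nt in the table that could be matched to GENCODE, 17 of 93 (18.3%) held GCATG on the transcript strand, and of those of 57 nt, 4 of 140 (2.86%). Over all 24785 matched exons the share was 11.6%. Exon 8 of APP, the called exon, does not hold these letters. The flanking introns were not searched because no hg19 genome sequence was used here.

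The small exons ahead of the membrane span are exon 15 of APP (54 nt, chr21:27277336-27277389) and exon 14 of APLP2 (36 nt, chr11:130007151-130007186). They are given in capitals with 15 bases of each neighbouring exon. The skipping junctions follow with the downstream exon in capitals, since these hold the bases of the chondroitin sulfate site.
APP exon 15 in 14-15-16: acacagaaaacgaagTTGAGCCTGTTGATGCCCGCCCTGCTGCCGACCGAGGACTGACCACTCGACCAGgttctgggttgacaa
APLP2 exon 14 in 13-14-15: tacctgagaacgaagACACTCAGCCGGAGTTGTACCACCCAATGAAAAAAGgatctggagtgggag
APP junction 14-16: acacagaaaacgaagGTTCTGGGTTGACAA
APLP2 junction 13-15: tacctgagaacgaagGATCTGGAGTGGGAG

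The skipping junctions were identical at 19 of 30 positions (63.3%), while the exons themselves differ in length. In the authors' deposited table exon 14 of APLP2 stood at 0.088, with an rMATS p-value of 0.00366 and an FDR of 0.0572. It had the lowest p-value of the APLP2 events, was higher in the first set, and missed both limits for a call. Exon 15 of APP stood at -0.006 (p-value 1) in the authors' deposited table. Neither exon was called, and the difference between them was not tested. In GENCODE 29, 2 of the 6 coding APLP2 transcripts with exon 13 contain exon 14, and both also contain the inhibitor exon. Another 2 contain the inhibitor exon alone and the remaining 2 contain neither.

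The extracellular domain near the amino end, called E1, is encoded in part by exon 2 of APP and by exons 3 and 4 of APLP2. In the authors' deposited table exon 2 of APP (168 nt, between introns of 58418 and 21907 nt) stood at 0.004 with a p-value of 1. Exon 3 of APLP2 (124 nt) was listed with exon 1 and a 72-nt form of exon 4 as its partners, at 0.001 and a p-value of 1 in the authors' deposited table. That arrangement matched no coding transcript in GENCODE 29. Exon 4 of APLP2 (113 nt) was listed at -0.004 with a p-value of 1 in the authors' deposited table. The events of exons 3 and 4 of APLP2 both count reads over the 3-4 junction as inclusion, so their values are not independent. These are the 2 among the 10 exons whose length is not divisible by 3. Skipping either alone shifts the reading frame. The other 8 keep it.

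The remaining events were both in APLP2. Exon 13 (153 nt, chr11:130005458-130005610), the exon just ahead of exon 14, was listed between exons 12 and 15 at -0.003 with a p-value of 0.914 in the authors' deposited table. Its 13-15 inclusion junction is also the skipping junction of exon 14, so these events share reads as well. Exon 16 (75 nt, chr11:130011393-130011467) had 0.004 at a p-value of 1 in the authors' deposited table. A p-value of 1 went with absolute differences of at most 0.006 in the 12 events. Over the whole table it also went with differences of up to 1.

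**Figure D3:**
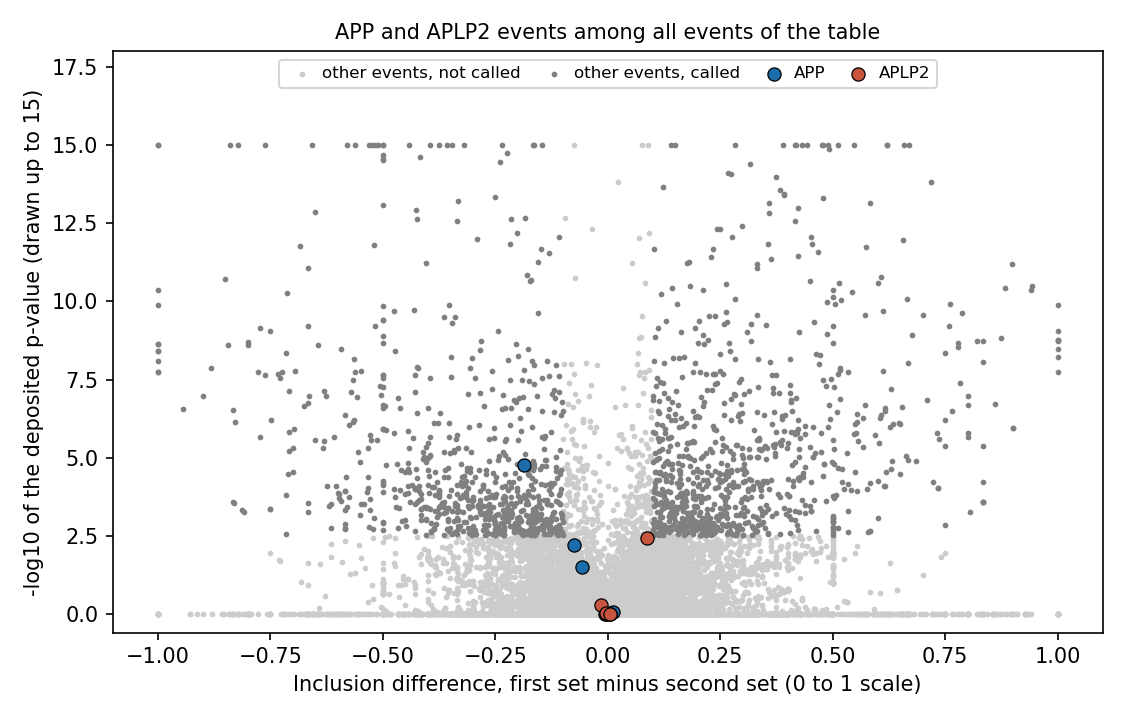
Inclusion difference (first set minus second set, horizontal axis) against the -log10 of the deposited p-value (vertical axis, higher values drawn at 15) for all 31408 events, called events in dark grey, APP in blue and APLP2 in red. Exon 8 of APP at -0.185 lies among the called events, and exon 14 of APLP2 at 0.088 lies just short of both limits.

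The third gene of the family, APLP1, is expressed mainly in neurons. The authors' deposited table listed 4 events for it and none was called. A 131-nt exon had its lowest p-value, 0.00946 (FDR 0.12), at an inclusion difference of 0.191 in the authors' deposited table. Of the 17 listed genes with Kunitz domains, 4 had events: APP, APLP2, SPINT2 and TFPI. SPINT2 and TFPI, secreted or membrane-bound inhibitors of serine proteases, had 1 event each, neither of them called.

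The genes that cut, bind or sort APP were counted by role. No event was called among the alpha-secretases (8 events), beta-secretases (4), gamma-secretase subunits (31) or the proteases that degrade amyloid beta (13). The adaptors that bind the cytoplasmic tail had 7 called events of 49 (14.3%), 4 with the first set higher and 3 with the second, with a median absolute difference of 0.072. These called events lie in 6 genes, because KLC1 counts more than once. The lists were chosen with earlier results of these data known, so the share is not read as a result about the adaptors. Sorting and binding partners had 3 called events of 52 (5.77%). Over the 41 genes other than APP and APLP2 that had events, 10 of 163 events were called, 6.13% against 5.15% in the table. The median absolute difference of these 163 events was 0.054, against 0.048 for all events.

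Among the adaptors, NUMB, an endocytic adaptor, had the lowest p-value. In the authors' deposited table its 33-nt exon stood at -0.24 with an FDR of 2.12e-12. APBB2 and APBB3 belong to the FE65 adaptors, which carry signals from the APP tail. A 98-nt exon of APBB2 had 0.63 (FDR 6.07e-06) and a 61-nt exon of APBB3 had -0.609 (FDR 0.000125) in the authors' deposited table. Both lengths are not divisible by 3, and neither are those of the called exons of GULP1, KLC1 and GGA3 given below. The called exons of NUMB, SHC1, GGA1 and LRP8 have lengths divisible by 3. A 54-nt exon of the signalling adaptor SHC1 had 0.11 (FDR 2.87e-06) in the authors' deposited table, and a 94-nt exon of the engulfment adaptor GULP1 had 0.3 (FDR 0.00211).

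KLC1 encodes a light chain of the motor kinesin. In the authors' deposited table its 131-nt exon was called in opposite directions, at 0.161 (FDR 0.00435) and at -0.37 (FDR 0.00853) with another upstream partner. Both events list a downstream exon of 73 nt, so they may share inclusion reads and are not taken as independent. The 3 other events of this exon stood at -0.06, 0.041 and -0.028 in the authors' deposited table and were not called. The sorting proteins GGA1 and GGA3 differed in direction: the authors' deposited table gave 0.291 (FDR 2.83e-05) for a 108-nt exon of GGA1 and -0.107 (FDR 0.000284) for a 169-nt exon of GGA3. A 123-nt exon of the receptor LRP8 had 0.27 (FDR 0.00378) in the authors' deposited table, and its other event, at -0.138, was not called.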

How the data were processed

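Ribosome-depleted, strand-specific RNA-seq libraries of 4 HEK293T clones were compared, per the labels' protocols. The submitters' processing notes name STAR 2.7.3a and hg19; the rMATS version, annotation and read filters are not given in the sources used here. The authors deposited 1 skipped-exon table with p-values and FDRs, per the file header. The inclusion difference is a signed score deposited by the authors, read as first minus second set, the rMATS convention. Effective lengths deposited with each event are 94 nt for skipping and up to 188 nt for inclusion. A Benjamini-Hochberg adjustment of the p-values over the table returned the deposited FDR (largest gap 2.22e-16).

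The 6 columns with values per library match no sample label and were not used in any step, a choice made because their samples are not named. Counts, depth and spread within the numbered sets were therefore not computed. p-values rest on 2 libraries per set, each 1 clone.

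Exons were matched to GENCODE 29 by exon length and intron lengths, with up to 5 nt of tolerance for APP and APLP2 (largest gap 2 nt) and none for other genes. hg19 and GENCODE 29 coordinates were never mixed. A call required FDR under 0.05 and an absolute difference of at least 0.1; FDR limits of 0.01 and 0.1, Bonferroni correction, differences of 0 and 0.2 and unique exons were alternatives. Every event of both genes and every called event of the listed genes is named. APLP1, SPINT2, TFPI and the uncalled events of LRP8 and KLC1 were added after their values were seen. Members and lists were chosen with earlier results of these data known. Scripts ran in Python 3.11.15 with matplotlib 3.10.9, scipy 1.17.1, numpy 2.4.6 and pandas 2.3.3.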

Additional observations from a re-analysis of the deposited data

How the results depend on the processing

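The call of APP exon 8 between exons 6 and 9 held at an FDR under 0.01, at an FDR under 0.1, without a minimum difference and by unique exon. It was lost under Bonferroni correction and at a minimum difference of 0.2, where its difference is still -0.185 and 0 of the 12 events passed. By rMATS, 4 of the 12 had an unadjusted p-value under 0.05. Under Bonferroni correction 1.5% (472 events) of the table passed, and at a minimum difference of 0.2 the share was 3.54%. With an FDR under 0.1 and no minimum difference, an alternative chosen after seeing the data, 3 of the 12 events passed, against 7.48% of the table. The added events were APP exon 8 between exons 7 and 9 (-0.075) and APLP2 exon 14 (0.088). The pathway list, APP and APLP2 included, had 11 called events, 4 under Bonferroni correction and 7 at a minimum difference of 0.2. The stricter limits account for the lower counts by construction. No paired analysis was possible because library columns show only a set number and none of the replicate numbers in the titles. Leaving out each library and a minimum of junction reads were not run, because columns without a sample name were not used; how far 1 clone decides the APP call was not tested.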
